A study of Mus musculus with 27 samples.

Results

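The Presomitic Mesoderm (PSM) cells of gastruloids were taken as all cells that the deposited table of gastruloid cells places in Leiden cluster 2, the cluster carrying the name Presomitic Mesoderm. They were 563 of the 4637 gastruloid cells, or 12.1%, and came from 14 of 15 gastruloids. Gastruloids are aggregates of mouse embryonic stem cells (mESCs) that, after a pulse of the Wnt agonist chiron, elongate and form cell types of the post-gastrulation embryo. All gastruloids were grown from 1 mESC line, B6 (129S1/SvImJ/ C57BL/6), which was kept in ESLIF, a medium with serum and leukaemia inhibitory factor. Before aggregation the cells had stayed in ESLIF throughout (condition 1), had received 48 h of 2i medium followed by 48 h of ESLIF (condition 5), or 24 h of 2i followed by 24 h of ESLIF (condition 6). The 2i medium contains leukaemia inhibitory factor with chiron and an inhibitor of MEK. From each condition 5 single gastruloids were dissociated, and live cells of each were sorted into its own 384-well plate for CEL-seq2, a single-cell RNA-seq protocol with molecular identifiers. Gastruloid and plate therefore cannot be told apart, and the p-values below measure the spread between gastruloids. Whether the 5 gastruloids of a condition came from 1 or several pre-cultures or aggregation rounds is not given. Differences between conditions may therefore include differences between cultures, which these p-values do not measure.

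PSM is the unsegmented paraxial mesoderm at the posterior end of the embryo. It is replenished from neuromesodermal progenitors (NMPs) and the caudal epiblast, is held in an immature state by Wnt and FGF signals, and gives off somites at its anterior end, the differentiation front, in the rhythm of a segmentation clock. Tbx6 and Msgn1, transcription factors of the paraxial mesoderm, Dll1, a Notch ligand, and Hes7, a repressor of the clock, are its usual markers. Gene-level counts were not analysed here, so the name of the cluster was not checked against these 4 markers, and the cell types below are those of the deposited annotation. A second, unnamed grouping in the same table separated nearly the same cells: 524 of the 563 PSM cells (93.1%) carried 1 value of it, and 94.1% of all cells with that value were PSM. How that grouping was made is not given, so it is not an independent check of the cluster or its name.

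The depth of the PSM cells was close to that of the data as a whole. They held a median of 9611 counts per cell, with a range of 513 to 31671, against a median of 9008 in the 4074 other cells. Their mitochondrial reads ranged from 1.08% to 13.4%, so that none of the 99 gastruloid cells with under 1% mitochondrial reads was a PSM cell. This was not particular to PSM. Of these 99 cells, 91 were Allantois, 5 Endoderm, 2 Differentiation Front and 1 NMP/Caudal Epiblast, and the remaining types held none. Fewer than 1000 counts were held by 14 of the 563 PSM cells and by 129 of the 4074 other cells. More than 10% mitochondrial reads were found in 4 PSM cells and in 59 of the other cells. Cells with more than 2 times the median counts of their gastruloid made up 4.80% of PSM cells and 4.74% of the other cells. Doublets could not be called and cells could not be thinned to an equal depth without gene-level counts. The plates drew their cell numbers from 1 range: all 376 distinct numbers occurred on more than 1 plate and 27 on all 15, and no cell name occurred more than once.

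PSM cells made up a smaller share of condition 1 gastruloids than of condition 5 gastruloids. In condition 1 they made up 3.24% of the cells of gastruloid 1A (10 of 309), 9.18% in 1B (28 of 305), 2.35% in 1C (7 of 298) and 11.7% in 1E (37 of 315). In gastruloid 1D, 0 of 302 cells were PSM, which allows a share of up to 0.993% when the limit is set at 3 cells, and up to 1.26% by the 95% Wilson interval. In condition 5 the shares were 18.0% in 5A, 14.1% in 5B, 16.9% in 5C, 19.5% in 5D and 10.4% in 5E. In condition 6 they were 11.01% in 6A, 11.1% in 6B, 16.8% in 6C, 18.4% in 6D and 18.8% in 6E. Gastruloid 1E was the only one of condition 1 that reached into the range of the others, lying above 5E, 6A and 6B. With 95% Wilson intervals, which like the limits for 1D cover counting error only, 1E lay between 8.64% and 15.8%, 5E between 7.43% and 14.3%, and 6A between 8.02% and 14.9%, so these gastruloids could not be separated at this number of cells.

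The mean share was 5.30% ± 4.94 (SD, n = 5) in condition 1, 15.8% ± 3.61 (SD, n = 5) in condition 5 and 15.2% ± 3.85 (SD, n = 5) in condition 6. The difference of 10.5 percentage points between conditions 1 and 5 passed a two-sided exact Wilcoxon rank-sum test after Bonferroni correction over the 3 pairs of conditions (p = 0.0159, corrected p = 0.0476). Corrected over the 33 tests of all 11 cell types it did not pass (exact test, Benjamini-Hochberg q = 0.0748). The difference of 9.92 points between conditions 1 and 6 did not pass (exact p = 0.0317, corrected p = 0.0952, q = 0.105), and without gastruloid 1E it was 11.5 points and passed (exact p = 0.0159). Conditions 5 and 6 differed by -0.54 points (exact p = 1). The call between conditions 1 and 5 was lost when any gastruloid other than 1E or 5E was left out (exact p = 0.0317, differences from 9.13 to 11.4 points). Within each condition the gastruloids varied by more than the counting of cells gives: the SD was 3.95, 1.73 and 1.92 times the binomial SD in conditions 1, 5 and 6. Gastruloid 1D also stood apart in Spinal Cord cells, which were 58.9% of its cells, 7.21% to 16.8% in the other gastruloids of condition 1 and at most 1.90% in conditions 5 and 6. The part of Spinal Cord cells in the difference in PSM share was not tested. A share is relative to the cells sorted and does not give the number of PSM cells in a gastruloid.

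**Figure D1:**
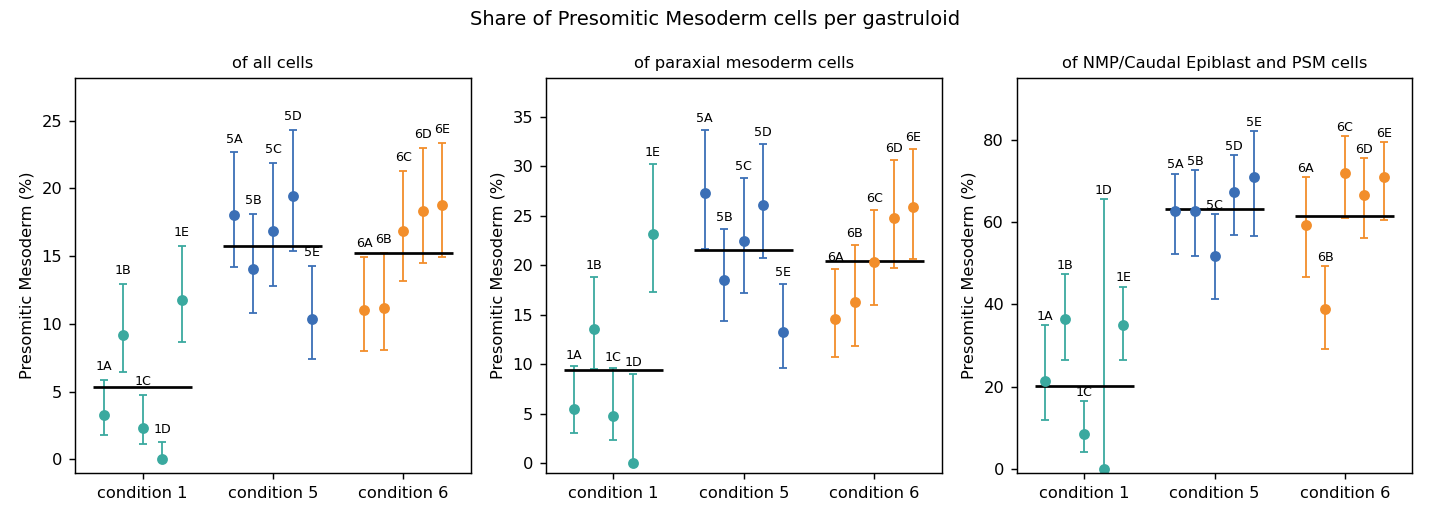
PSM cells of each gastruloid as a percentage of all cells (left), of paraxial mesoderm cells (middle) and of NMP/Caudal Epiblast and PSM cells together (right), with 95% Wilson intervals, and the mean of each condition as a black line. The mean of condition 1 is lowest in all panels, and only in the right panel do the points of its 5 gastruloids, though not their intervals, stay clear of those of conditions 5 and 6; the y axes differ between panels.

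Set against NMP/Caudal Epiblast cells, PSM cells were fewer in every gastruloid of condition 1 than in any of conditions 5 and 6. Of the NMP/Caudal Epiblast and PSM cells combined, PSM cells were 21.3% in 1A, 36.4% in 1B, 8.43% in 1C and 34.9% in 1E, while 1D held only 2 such cells and neither was PSM. The 95% Wilson interval of 1D reached 65.8%, so its place below conditions 5 and 6 is not settled. In condition 5, PSM cells were 62.6% in 5A, 62.8% in 5B, 51.8% in 5C, 67.4% in 5D and 71.1% in 5E. In condition 6 they were 59.3% in 6A, 38.8% in 6B, 72.0% in 6C, 66.7% in 6D and 70.9% in 6E. The lowest gastruloid of conditions 5 and 6, 6B, was above 1B, the highest of condition 1, but their 95% Wilson intervals overlapped widely (29.2% to 49.5% in 6B and 26.5% to 47.5% in 1B). Conditions 5 and 6 overlapped each other. The means were 20.2% ± 16.01 (SD, n = 5), 63.2% ± 7.28 (SD, n = 5) and 61.5% ± 13.6 (SD, n = 5). Condition 1 was lower than condition 5 by 43.0 points and than condition 6 by 41.4 points (exact two-sided Wilcoxon test, p = 0.00794 for both, the smallest that 5 against 5 gastruloids allow, corrected p = 0.0238). This correction covers the pairs of conditions, and not the other denominators or cell types for which shares were tested. Without 1D the differences were 37.9 and 36.3 points and still passed (exact p = 0.0159 for both), and conditions 5 and 6 did not pass (-1.61 points, exact p = 1). Counted over all gastruloids of a condition, there were 0.352 PSM cells for every NMP/Caudal Epiblast cell in condition 1, 1.66 in condition 5 and 1.596 in condition 6. NMP/Caudal Epiblast cells were 233 of 1529 cells in condition 1, 145 of 1532 in condition 5 and 151 of 1576 in condition 6. By gastruloid they were 0.662% (1D) to 25.5% (1C), 4.21% (5E) to 15.7% (5C) and 6.54% (6C) to 17.6% (6B). The parts of PSM and of NMP/Caudal Epiblast cells in the difference were not tested.

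Within the paraxial mesoderm (PSM, Differentiation Front, Early Somite and Somite) the share of PSM cells did not pass the test between any conditions. It was 5.46% in 1A, 13.5% in 1B, 4.79% in 1C and 23.1% in 1E, and 0 of 39 cells in 1D, which allows up to 7.69% by the limit of 3 cells and 8.97% by the Wilson interval. It ranged from 13.3% (5E) to 27.3% (5A) in condition 5 and from 14.6% (6A) to 25.8% (6E) in condition 6, so that 1B and 1E overlapped with both. The means were 9.38% ± 9.09 (SD, n = 5), 21.5% ± 5.74 (SD, n = 5) and 20.4% ± 4.98 (SD, n = 5), with exact Wilcoxon p = 0.0952 for condition 1 against 5, 0.0556 for 1 against 6 and 0.690 for 5 against 6. Without 1E the difference between conditions 1 and 6 was 14.4 points and passed (exact p = 0.0159).

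Most PSM cells, like most of the other gastruloid cells, were called in S or G2M phase. The deposited phase follows from the deposited S and G2M scores, which sum up the expression of S-phase and G2M-phase genes: in all 4637 cells it was G1 where both scores were below 0 and otherwise the phase with the higher score. By these calls, 344 PSM cells (61.1%) were in S, 199 (35.3%) in G2M and 20 (3.55%) in G1. Of the 4074 other cells, 55.9% were in S, 37.2% in G2M and 6.92% in G1. Within gastruloids, the G1 share of PSM differed from that of all other cells by -4.19 points, lower in 12 of 14, given with no test. The G1 share of NMP/Caudal Epiblast cells was lower still, at 0.945%. The scores of 69 PSM cells (12.3%) lay within 0.01 of each other, close to the border between S and G2M. Phase calls alone do not show that cells cycle.

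Over the 14 gastruloids with at least 5 PSM cells, the S-phase share was lowest in 1B (46.4%), had a median of 59.7% and was highest in 5A (71.9%). The G2M share ran the other way, from 26.3% in 5A over a median of 38.2% to 53.6% in 1B. Condition 1 held no G1 call among its 82 PSM cells, which allows up to 3.66% by the limit of 3 cells. This limit pools the cells of several gastruloids and covers counting error only. G1 calls in condition 1 were also rare in NMP/Caudal Epiblast (1 of 233) and Somite cells (2 of 286). They were 5 of 130 in Differentiation Front, 14 of 237 in Early Somite and 86 of 1447 in all cells other than PSM. Of the 20 G1 calls in PSM cells, 7 came from gastruloid 6C, where they were 12.96% of PSM cells. In condition 1 the G2M share was 40% in 1A, 53.6% in 1B, 42.9% in 1C, where it rests on 7 cells, and 40.5% in 1E. In condition 6 it was 40% in 6A, 36.4% in 6B, 29.6% in 6C, 32.8% in 6D and 29.5% in 6E. These values met only at 1A and 6A, yet the difference of -10.6 points did not pass after correction (two-sided exact Wilcoxon p = 0.0238, corrected p = 0.0714). No other difference in S or G2M share between conditions passed (exact p from 0.0714 to 0.841).

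PSM cells were compared in phase with NMP/Caudal Epiblast and with the 3 other types of the paraxial mesoderm, and of these 4 types Early Somite and Somite lay farthest from them. In the same gastruloids, the S-phase share was 60.1% ± 6.44 (SD, n = 14) in PSM, 65.5% ± 9.07 in NMP/Caudal Epiblast, 66.4% ± 8.83 in Differentiation Front, 78.5% ± 8.60 in Early Somite and 31.3% ± 11.4 in Somite. The G2M share was 37.2% ± 7.0 in PSM, 33.1% ± 7.94 in NMP/Caudal Epiblast, 27.9% ± 7.80 in Differentiation Front, 13.4% ± 8.04 in Early Somite and 65.1% ± 14.7 in Somite. PSM cells thus stood between Early Somite, with the highest S share, and Somite, with the highest G2M share, and near NMP/Caudal Epiblast and Differentiation Front.

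Each gastruloid was then used as its own control, with a two-sided exact sign-flip test over the 14 gastruloids and Benjamini-Hochberg correction over the 16 tests of 4 measures against 4 sets of cells. The phase calls follow from scores that are read from genes of the cells that were clustered. The p-values therefore show how steadily a difference recurs over gastruloids, and are no independent test of the clusters. Against Early Somite, the S share of PSM was lower by 18.4 points ± 11.6 (SD) and the G2M share higher by 23.9 points ± 11.8. Both differences had the same direction in 14 of 14 gastruloids (exact sign-flip p = 0.000122, the smallest possible, q = 0.000977). Against Differentiation Front, the G2M share was higher by 9.31 points ± 7.98 and in 13 of 14 gastruloids (exact q = 0.00391). The S share was lower by 6.29 points ± 9.85, in 10 of 14, and did not pass (exact q = 0.0688), but did pass without 5A (-7.75 points) or without 5E (-7.49 points). The differences from NMP/Caudal Epiblast did not pass, with S lower by 5.36 points ± 12.9 (exact q = 0.190) and G2M higher by 4.13 points ± 10.7 (exact q = 0.202). Against Somite, given with no test, the S share of PSM was higher by 28.8 points and the G2M share lower by 27.9 points, each in 14 of 14 gastruloids.

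Against all other cells of the gastruloid as 1 set, PSM cells did not pass in either phase. Their S share was higher by 3.57 points ± 7.78, in 12 of 14 gastruloids (exact q = 0.158), and their G2M share by 0.62 points ± 8.13, in 7 of 14 (exact q = 0.782). Without gastruloid 1B, where the S share was 14.2 points below that of the other cells, the S difference was 4.94 points and passed. Which cells were compared set these values: with Somite and Early Somite left out of the other cells, the S difference became -0.36 points and the G2M difference 5.74 points, the latter passing (exact p = 0.00415), a choice made after the data were seen.

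**Figure D2:**
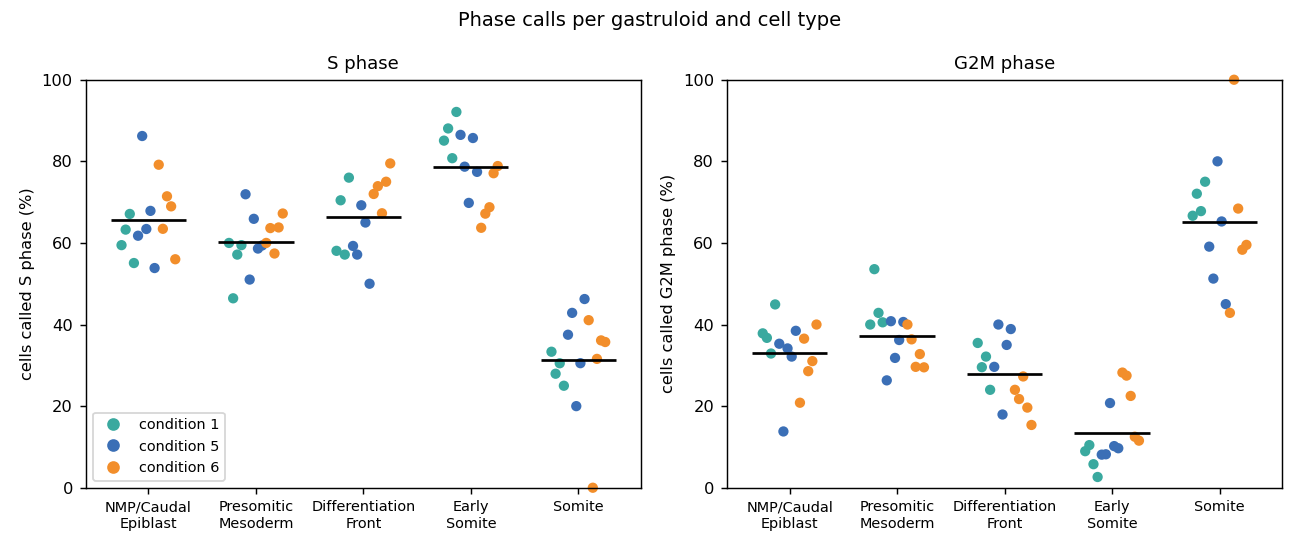
Percentage of cells called S phase (left) and G2M phase (right) in 5 cell types. Each point is 1 of the 14 gastruloids with at least 5 PSM cells, coloured by condition, and the line is the mean; PSM (mean 60.1% S and 37.2% G2M) lies between Early Somite and Somite in both panels.

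Early Somite cells and PSM cells also differed in depth, and phase calls moved with depth. Values within classes of depth are given for PSM against all other cells, and not for PSM against Early Somite. The cells of each gastruloid were divided into 3 classes of equal size by counts per cell. In the lowest class the S share was 70.6% ± 11.4 (SD, n = 12 gastruloids) in PSM and 58.5% ± 4.204 in the other cells. In the middle class it was 73.2% ± 14.98 in PSM and 64.1% ± 5.65 in the other cells. In the highest class it was 40.9% ± 16.3 (n = 13) in PSM and 47.0% ± 4.92 in the other cells. PSM cells were thus more often in S than the other cells in the lower classes, in 10 and 8 of 12 gastruloids, and less often in the highest class, in 9 of 13. Averaged over the 3 classes, the S share of PSM was higher than that of all other cells by 5.84 points, which passed (exact sign-flip p = 0.0104), while the G2M difference was -1.77 points and did not (exact p = 0.263). These averages set no minimum of PSM cells per class. Classes with fewer than 5 PSM cells, left out of the class values above, therefore entered them. The G2M share of PSM was 23.4%, 23.4% and 59.1% from the lowest to the highest class.

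G2M cells of the PSM held more counts than S cells in all 12 gastruloids with enough of both, on average 1.36-fold, and the same held for the other cells in 15 of 15 gastruloids, by 1.23-fold. PSM cells in G2M had a median of 12521 counts, those in S 8968 and the 20 in G1 6796. No G1 call occurred among the 194 PSM cells of the highest class.

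**Figure D3:**
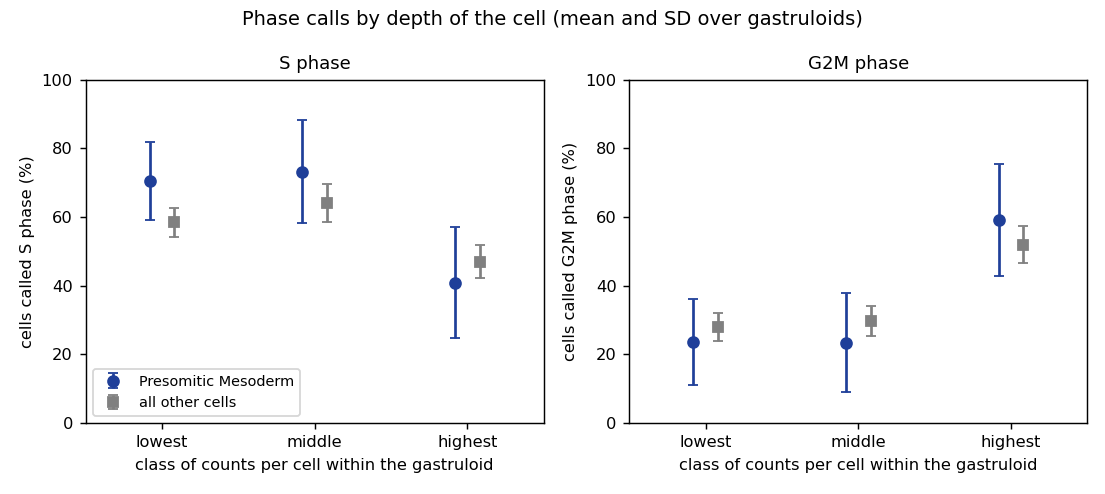
Percentage of cells called S phase (left) and G2M phase (right) in 3 classes of counts per cell, formed within each gastruloid, for PSM cells (circles) and all other cells (squares). Points and bars are the mean and SD over gastruloids with at least 5 PSM cells in the class; the S share of PSM is 73.2% in the middle class and 40.9% in the highest.

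The scores behind the calls are given as a description, since they are read from genes of the cells that were clustered. The mean S score of PSM cells was 0.0333 ± 0.00483 (SD, n = 14 gastruloids), below that of NMP/Caudal Epiblast by 0.0120 and lower in 13 of 14 gastruloids. It was lower than in Early Somite in 14 of 14 and higher than in Somite in 11 of 14. Against all other cells the S score was lower by 0.00369, in 12 of 14 gastruloids. The share of S calls went the other way and was higher than in all other cells in 12 of 14. The mean G2M score was 0.0156 ± 0.00575, below that of all other cells in 13 of 14 gastruloids, below Somite in 14 of 14, and above Early Somite in 14 of 14 and Differentiation Front in 12 of 14. PSM cells thus had low values of both scores beside NMP/Caudal Epiblast, although their shares of S and G2M calls did not pass the test against it.

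The counts per cell of the PSM were lower than those of NMP/Caudal Epiblast and higher than those of Early Somite. The median count of PSM cells was lowest in 5D (7743), had a median over gastruloids of 9874 and was highest in 6A (14508). Against NMP/Caudal Epiblast it was 0.929-fold, a log2 difference of -0.11 ± 0.11 (SD, n = 14 gastruloids), lower in 11 of 14 (exact sign-flip q = 0.00977). Against Early Somite it was 1.34-fold, a log2 difference of 0.43 ± 0.21, higher in 13 of 14, all but 5D (exact q = 0.000977). The differences from Differentiation Front (log2 0.12 ± 0.24, exact q = 0.129) and from all other cells (log2 0.07 ± 0.18, exact q = 0.190) did not pass. The latter passed without gastruloid 5D (log2 0.11). Against NMP/Caudal Epiblast the call was lost among cells with at least 1000 counts (log2 -0.10) and with the mean in place of the median over cells (log2 -0.07), and against Differentiation Front the mean gave a difference that passed (log2 0.18).

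The number of genes detected followed the counts: the median over PSM cells averaged 4499 ± 463 (SD, n = 14), was lower than in NMP/Caudal Epiblast in 11 of 14 gastruloids and higher than in Early Somite in 13 of 14. Against all other cells the log2 ratio of genes was 0.04 ± 0.10, and within the lowest, middle and highest class of counts it was 0.11 ± 0.17, 0.00 ± 0.05 and 0.01 ± 0.05. In the lowest class the counts of PSM cells were also higher, by 0.18 ± 0.26 on the log2 scale. Between conditions, the counts of PSM cells averaged 9901 ± 1232 (SD, n = 4) in condition 1, 9167 ± 1236 (SD, n = 5) in condition 5 and 10737 ± 2792 (SD, n = 5) in condition 6. No pair passed (exact Wilcoxon p from 0.286 to 0.905).

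The mitochondrial percentage of PSM cells lay above that of Differentiation Front and below that of Early Somite. It averaged 5.03% ± 0.46 (SD, n = 14 gastruloids), with the lowest median in 6A (4.19%) and the highest in 5D (5.67%). Against Differentiation Front it was higher by 0.317 points ± 0.352, in 11 of 14 gastruloids, the exceptions being 1E, 6A and 6B (exact sign-flip q = 0.00977). Against Early Somite it was lower by 0.376 points ± 0.232, in 13 of 14, all but 5B (exact q = 0.000977). The difference of 0.210 points ± 0.385 from NMP/Caudal Epiblast did not pass (exact q = 0.112) but did without 6E (0.271 points), and that of 0.0427 points ± 0.229 from all other cells did not pass (exact q = 0.524).

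**Figure D4:**
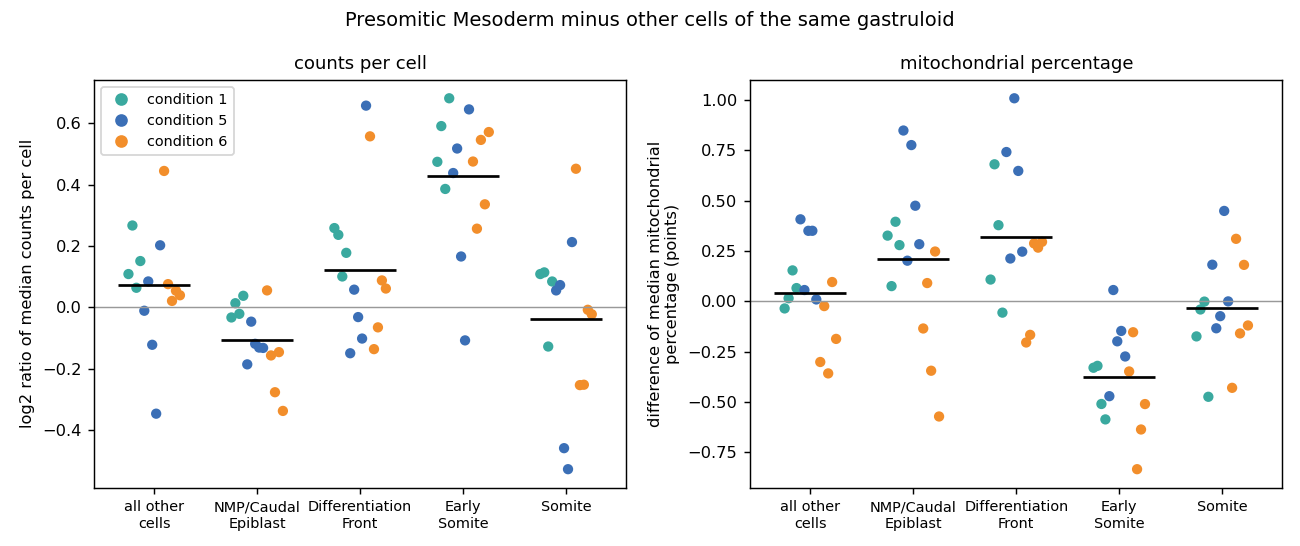
Difference between PSM cells and other cells of the same gastruloid in counts per cell (left, log2 ratio of medians) and mitochondrial percentage (right, percentage points). Points are the 14 gastruloids with at least 5 PSM cells, coloured by condition, and lines are means; counts lie above Early Somite in 13 of 14 gastruloids and mitochondrial percentage below it in 13 of 14.

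PSM cells of condition 6 had a lower mitochondrial percentage than those of conditions 1 and 5. The medians were 5.23% in 1A, 5.43% in 1B, 5.18% in 1C and 5.41% in 1E. They were 5.56% in 5A, 5.06% in 5B, 5.35% in 5C, 5.67% in 5D and 4.91% in 5E. In condition 6 they were 4.19% in 6A, 4.52% in 6B, 4.64% in 6C, 4.38% in 6D and 4.83% in 6E, all below every gastruloid of conditions 1 and 5. The means were 5.31% ± 0.125 (SD, n = 4), 5.31% ± 0.324 (SD, n = 5) and 4.51% ± 0.243 (SD, n = 5). Condition 6 differed from condition 5 by -0.799 points (two-sided exact Wilcoxon p = 0.00794, corrected p = 0.0238) and from condition 1 by -0.803 points (exact p = 0.0159, corrected p = 0.0476). Conditions 1 and 5 did not pass (exact p = 1). Over the 12 tests of the 4 measures between conditions, neither call held (exact tests, q = 0.0952 for both). The call between conditions 1 and 6 was lost without any 1 of the gastruloids, since fewer than 4 against 5 gastruloids cannot pass the corrected threshold (exact p = 0.0286 or 0.0357, the smallest possible, with differences from -0.882 to -0.723 points).

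The other cells of the same gastruloids moved with it. Their mitochondrial percentage averaged 5.26% ± 0.167 (SD, n = 4) in condition 1, 5.08% ± 0.164 (SD, n = 5) in condition 5 and 4.67% ± 0.324 (SD, n = 5) in condition 6. The PSM cells lay above the other cells in 5 of 5 gastruloids of condition 5, by 0.234 points on average, and below them in 4 of 5 of condition 6, by 0.155 points. Whether the difference between conditions belongs to the plates or to the cells cannot be told apart.

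**Figure D5:**
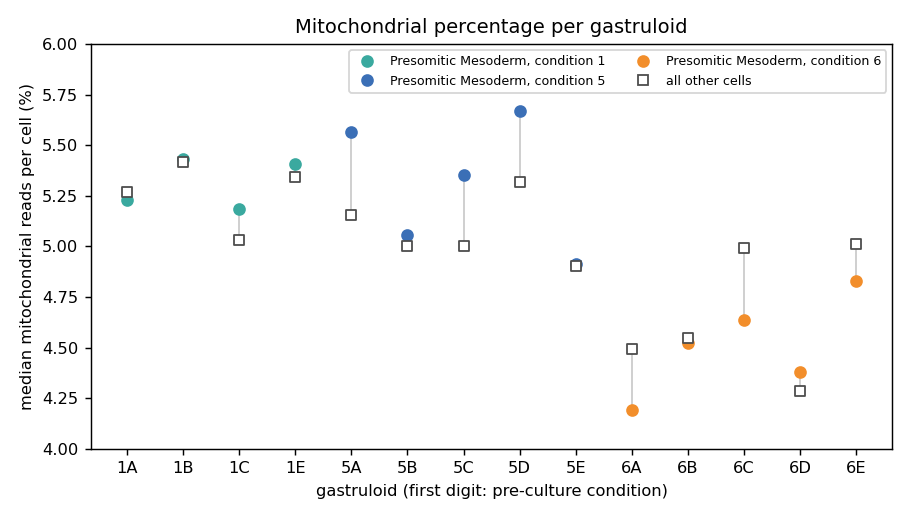
Median mitochondrial reads per cell, in percent, for PSM cells (circles, coloured by condition) and all other cells (open squares) in the 14 gastruloids with at least 5 PSM cells; the y axis starts at 4%. All 5 PSM medians of condition 6 (4.19% to 4.83%) lie below those of conditions 1 and 5.

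On the deposited UMAP, the PSM cells lay mostly among themselves. Since UMAP and clusters come from the same expression values, the neighbours are given with no test. Of the 15 nearest cells of each PSM cell, 95.8% were PSM, where 12.1% is the share among all cells. The next were Somite with 2.07%, Differentiation Front with 1.56% and NMP/Caudal Epiblast with 0.343%, against 23.96%, 10.1% and 11.4% among all cells. Allantois, Endoderm, Neural Crest and PGC-like cells, the last named after primordial germ cells, were never among the neighbours. A total of 476 PSM cells (84.5%) had PSM neighbours only, and in 14 cells PSM neighbours were in the minority. Somite cells bordered 48 PSM cells, Differentiation Front 37, NMP/Caudal Epiblast 10 and Early Somite 1.

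The PSM cells that bordered on other types were few per gastruloid. The 10 cells with an NMP/Caudal Epiblast neighbour came from 8 gastruloids and 8 of them were called S. The 37 with a Differentiation Front neighbour came from 12 gastruloids and were 62.2% S and 32.4% G2M, and the 48 with a Somite neighbour were 60.4% S and 35.4% G2M. Cells with PSM neighbours only were 60.9% S and 35.9% G2M. Median counts were 9253 beside Differentiation Front and 8311 beside Somite, against 9864 in cells with PSM neighbours only. Compared within gastruloids with at least 5 such cells, the cells beside Differentiation Front had a G2M share lower by 19.4 points ± 15.5 (SD, n = 3) than the rest of the PSM, in 3 of 3 gastruloids. The cells beside Differentiation Front also had a mitochondrial percentage lower by 0.317 points ± 0.132, and counts lower by 0.17 ± 0.11 (log2), each in 3 of 3. Those beside Somite had a mitochondrial percentage lower by 0.420 points ± 0.268 (SD, n = 5), in 5 of 5, while their G2M share was higher in 3 and lower in 2. The 1 PSM cell beside Early Somite was the shallowest of all, with 513 counts.

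The share of PSM neighbours varied little between gastruloids, from 92.6% in 6C to 99.05% in 6A. It averaged 94.2% ± 0.932 (SD, n = 4) in condition 1, 96.2% ± 1.07 (SD, n = 5) in condition 5 and 95.9% ± 2.91 (SD, n = 5) in condition 6. Somite neighbours averaged 3.94% ± 1.36, 1.69% ± 1.30 and 2.14% ± 2.07. Cells of all conditions were mixed within the PSM: 41.7% of PSM neighbours came from the same condition, where a random mixture of these cells gives 38.6%. From the same gastruloid came 11.5%, against 8.24% in a random mixture, with the widest gaps in 6B (15.3% against 5.69%) and 6D (18.2% against 10.1%). Neighbours shared their phase call in 58.8% of cases, against 49.9% in a random mixture of PSM cells. Per the study's methods, phase had been regressed out before the map was made.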

How the data were processed

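Single-cell RNA-seq (CEL-seq2) was read from 1 plate for each of 15 gastruloids. Per the labels and the study's methods, the authors trimmed reads with cutadapt 4.1, mapped them with STAR 2.5.3a to a SNP-masked GRCm38 genome, counted them per gene and removed duplicates by molecular identifier. They filtered cells, removed mitochondrial, ribosomal and Malat1 reads, regressed out counts, mitochondrial percentage and cell cycle phase, and clustered the cells (Leiden) in Scanpy. The deposited table of cells gives the counts and genes per cell, the mitochondrial fraction (0 to 1, here multiplied by 100), the S and G2M scores, the phase, UMAP positions, the cluster and the cell type. How the authors made the deposited scores is not given in the sources used here. The deposited tables of sequencing runs and adapters were not used. Deposited type names were replaced by those of the study where the numbers of cells were equal.

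Cells were summarised per gastruloid (share, or median over cells, with at least 5 cells of a type). Shares and measures were compared between conditions by a two-sided exact Wilcoxon rank-sum test, called where p times 3 was under 0.05, and within gastruloids by a two-sided exact sign-flip test, called where the Benjamini-Hochberg q over 16 tests was under 0.05. UMAP neighbours were the 15 nearest cells by Euclidean distance. Regressing counts, mitochondrial percentage and phase out before clustering need not remove them in full, so the tests against other types compare cells grouped by their own expression. No gene was named with a value, since gene-level counts were not analysed here. The members and measures were chosen with earlier results of these data known. Tests were checked on simulated data. The simulated shares varied by the counting of cells only, and not by the wider spread between gastruloids seen here. Python 3.11.15, numpy 2.4.6, pandas 2.3.3, scipy 1.17.1 and matplotlib 3.10.9 were used. Alternatives covered minimum numbers of cells, filters on counts and mitochondrial reads, means in place of medians, classes of counts, other denominators, blocking on replicate number, and dropping 1 gastruloid at a time.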

Additional observations from a re-analysis of the deposited data

Results flagged for a closer look

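Within conditions, 3 gastruloids lay apart from the other 4 in a difference between PSM and other cells by Dixon's criterion, which chance meets in about 1 of 20 groups and which was applied to 69 groups. In condition 6, the G2M share of PSM minus Differentiation Front was 2.36 points in 6C, with the next gastruloid at 13.1 points. In condition 6, the log2 ratio of counts between PSM and all other cells was 0.44 in 6A, with the next at 0.08. In condition 5, the log2 ratio of counts between PSM and Differentiation Front was 0.66 in 5E, with the next at 0.06.

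Differences between PSM and other cells of the same gastruloid were also compared between conditions (48 exact two-sided Wilcoxon rank-sum tests, of which 8 gave p under 0.05). None passed the Benjamini-Hochberg correction over the 48 (smallest q = 0.152), so these 8 are given as values. The S share of PSM minus Differentiation Front went from 1.24 points in condition 5 to -11.1 in condition 6, a change of -12.4 (exact p = 0.00794). Its G2M counterpart went from 2.86 to 12.04 points, a change of 9.18 (exact p = 0.0317). The S share of PSM minus Early Somite went from -30.7 points in condition 1 to -8.70 in condition 6, a change of 22.04 (exact p = 0.0159). Its G2M counterpart went from 37.3 points in condition 1 to 23.8 in condition 5, a change of -13.5 (exact p = 0.0317), and to 13.2 in condition 6, a change of -24.1 (exact p = 0.0159). These differences also move with the other type. From condition 5 to 6, the mean S share went from 61.4% to 62.4% in PSM and from 60.1% to 73.5% in Differentiation Front. From condition 1 to 6, the mean S share went from 55.8% to 62.4% in PSM and from 86.5% to 71.1% in Early Somite. The mean G2M share went from 44.2% to 33.7% in PSM and from 6.95% to 20.4% in Early Somite. The log2 ratio of counts between PSM and NMP/Caudal Epiblast changed by -0.12 from condition 1 to 5 (exact p = 0.0159). The mitochondrial percentage of PSM minus all other cells changed by -0.389 points from condition 5 to 6 (exact p = 0.0317), and that of PSM minus NMP/Caudal Epiblast by -0.659 points, from 0.517 to -0.143 (exact p = 0.0159).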

How the results depend on the processing

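Of 634 values recomputed for 42 results, 573 kept direction and side of the threshold, 26 lost the call, 12 gained one and 23 changed sign; apart from what is named here the cause was not tested. Whether the replicate numbers of the labels pair gastruloids is not given. Correlations of same-numbered gastruloids over cell types ran from -0.505 to 0.340, with 7 of 15 pairs over 0.1. They cannot decide this, as differently numbered gastruloids were not set beside them. With the replicate number as a block, the smallest exact p is 0.0625 with 5 pairs and 0.125 with 4, so no call can pass: PSM share 1 against 5, 10.5 points; share of NMP/Caudal Epiblast and PSM, 43.0 and 41.4; mitochondrial percentage, -0.882 (1 against 6) and -0.799 (5 against 6), and 0.0598 (1 against 5, sign changed). Conditions 5 and 6 reversed in PSM share under the unnamed grouping, added after the data were seen (0.154). Mitochondrial percentage 1 against 5 changed sign at 1000 counts or more (0.00840) and with means (0.127). The call 1 against 6 was lost with at least 10 PSM cells (-0.846) and with means (-0.637). Within gastruloids, S against all other cells gave 5.84 over 3 count classes and -0.359 without Somite and Early Somite; G2M gave -1.77 and 5.74. S against Differentiation Front passed at 1000 counts or more (-6.97) and at 10% mitochondrial reads or less (-6.72). Counts (log2) against NMP/Caudal Epiblast were -0.10 at 1000 counts or more and -0.071 with means, and against Differentiation Front 0.18 with means.

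Leaving out 1 gastruloid at a time gave PSM share from 9.13 to 12.1 (1 against 5), 8.59 to 11.5 (1 against 6) and -1.89 to 0.515 (5 against 6); paraxial share 8.66 to 14.4 (1 against 6) and -3.22 to 0.2997 (5 against 6); share of NMP/Caudal Epiblast and PSM -4.45 to 4.07 (5 against 6); S share -1.55 to 3.68 (5 against 6); counts (log2) -0.031 to 0.18 (1 against 6); and mitochondrial percentage -0.0935 to 0.0961 (1 against 5) and -0.882 to -0.723 (1 against 6). Within gastruloids it gave S 2.53 to 4.94 and G2M -0.759 to 1.49 against all other cells, S -7.75 to -4.92 against Differentiation Front, counts (log2) 0.045 to 0.11 against all other cells and mitochondrial percentage 0.161 to 0.271 against NMP/Caudal Epiblast. Few cells limit the values of 1C (7 PSM cells) and 1D (0 PSM cells).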
